A study of Marchantia polymorpha with 18 samples.

Results

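The genes described here are those of the liverwort Marchantia polymorpha whose response to wounding was larger in the Mpdes6fad5 mutant than in the wild-type accession Tak-1. They were selected on 2 measured values, both on the scale of log2(CPM + 1), where CPM is the read count of a gene scaled to library size by the deposited normalization. The wound response, defined as the mean of the wounded libraries minus the mean of the mock libraries, had to reach 1 in Mpdes6fad5. It also had to exceed the response of Tak-1 by at least 1. Of 13220 genes that reached 1 CPM in at least 3 of the 18 libraries, 228 met both conditions. Since the Tak-1 and Mpdes6fad5 responses chose these members, both responses and the levels behind them are given as descriptions, without a test. The wound response of Mpcoi1 was not used in the choice and is the response that was tested.

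Each group held 3 libraries, labelled biological replicates, and each replicate pooled 6 to 8 plants. The 6 groups were Tak-1, a male accession that serves as the wild type, the Mpcoi1 mutant and the Mpdes6fad5 mutant, which is named for lesions in the desaturase genes MpDES6 and MpFAD5, each mock treated or wounded with tweezers. All plants had grown for 3 weeks on agar medium, and the tissue is labelled leaflets while the protocol names apical fragments that carry no gemma cups. The treatment label gives 2 h, whereas the protocol gives freezing at 90 min. The labels used here do not state how many independent lines stood for each mutant, so each mutant is treated as 1 line. Separate growth of the replicates is not described beyond the pooling of plants, so the p-values measure the spread between these pools.

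Wounding of land plants releases polyunsaturated fatty acids from membranes, and lipoxygenase pathways turn them into oxylipins that include jasmonates. In Marchantia the receptor COI1 perceives dinor-oxo-phytodienoic acid and related molecules rather than jasmonoyl-isoleucine, and perception leads to loss of the JAZ repressor. Desaturases such as DES6 and FAD5 make the polyunsaturated acids from which these ligands arise. Late embryogenesis abundant (LEA) proteins and dehydrins are hydrophilic proteins known for accumulating when plant cells lose water. Phenylalanine ammonia lyase (PAL) opens the phenylpropanoid pathway, and chalcone synthases (CHS) and related polyketide synthases (PKS) build flavonoid and other polyketide skeletons from its products.

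The libraries held between 19382332 and 26303510 reads in genes, and a count of 0 allowed up to 0.107 to 0.158 CPM, a limit that covers counting error only. MpCOI1 transcript stood at 25.1 ± 1.76 CPM (SD, n = 3) in mock Mpcoi1 against 87.6 ± 3.41 in mock Tak-1. MpDES6 and MpFAD5 transcripts were still read in mock Mpdes6fad5, at 46.3 ± 2.5 and 285 ± 28.7 CPM, against 68.4 ± 7.42 and 467 ± 38.5 CPM in mock Tak-1. Of the vegetative thallus markers 2 of 2 were read in all groups, and their summed level was 216 to 434 CPM across libraries. The lowest correlation between libraries of 1 group was 0.986, between the wounded Tak-1 libraries 1 and 3, and it was 0.991 over the other 5 groups.

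The Tak-1 libraries numbered 3 stood apart for some of the members. Wounded library 3 was the highest of its group while mock library 3 was the lowest of its group in 72 of 228 members (31.6%) and in 1763 of all 13220 genes (13.3%). All 11 members of the phenylpropanoid list had this arrangement, against 2 of 20 LEA and dehydrin members. The labels name no batch, and what set these libraries apart was not tested. With both of these libraries left out, 295 genes met the rule and 221 of the 228 members were among them. With only these libraries standing for Tak-1, 165 genes met it, including 140 of the 228 members: 20 of 20 LEA and dehydrin members, 0 of 11 phenylpropanoid members, 6 of 24 other members with a symbol and 114 of 173 members without one. Both alternatives were chosen after seeing the data.

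Across the 228 members the wound response in Mpdes6fad5 had a median of 1.93 and ran from 1.01 to 5.35. In Tak-1 the median response was 0.38, from -0.90 to 4.25, and the median over all tested genes was -0.06. The difference between these responses ran from 1.01 to 3.32, with a median of 1.39. A Tak-1 response of 0 or less was seen in 35 members, one under 0.5 in 134, and one of at least 1 in 64, which is 28.1% of members beside 9.10% of all tested genes. Some members thus responded in both genotypes and others in the mutant alone, by their group means. Low expression outside the wounded mutant was common: the median of the group means was 0.679 CPM in mock Tak-1, 1.94 in wounded Tak-1, 0.908 in mock Mpdes6fad5 and 8.16 in wounded Mpdes6fad5. Without the wounded Mpdes6fad5 libraries 76 members would not have passed the filter on low values, and 54 reached 1 CPM in those libraries alone.

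In Mpcoi1, which the rule did not use, 113 of 228 members rose after wounding (limma, adjusted p under 0.05). That is 49.6% of members, while 24.5% of all tested genes rose. A single member fell, beside falls in 28.5% of all tested genes, and 114 did not pass the test. Of the 152 members that pass the filter on low values without the wounded Mpdes6fad5 libraries, 88 rose (57.9%, beside 24.5% of the 12972 genes that pass it so), and of the 76 that need those libraries 25 rose (32.9%); this split was added after seeing the data. The median response of members in Mpcoi1 was 0.47, from -0.51 to 3.20, against a median of -0.05 for all tested genes. Another 1132 genes had a Mpdes6fad5 response of at least 1 without exceeding Tak-1 by 1, and 942 of these (83.2%) rose in Mpcoi1, with a median response of 1.30. A response of at least 1 in Mpcoi1 was seen in 62 members (27.2%) and in 7.38% of all tested genes. The response in Mpcoi1 was below that in Mpdes6fad5 in all 228 members and above that in Tak-1 in 148. The rule favours a high Mpdes6fad5 response and a lower Tak-1 response, so a response between them is partly set by the choice. Nothing is read from this order. Without overlap, wounded Mpcoi1 lay above mock Mpcoi1 in 144 members (63.2%, beside 28.0% of all tested genes) and below it in 2 (0.877%, beside 34.1%). Wounded Tak-1 lay above mock Tak-1 in 106 members (46.5%, beside 26.1%). The rule used these Tak-1 libraries, so this count is not compared with that of Mpcoi1. Leaving out 1 Mpcoi1 library at a time gave 93 to 117 rises.

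**Figure D1:**
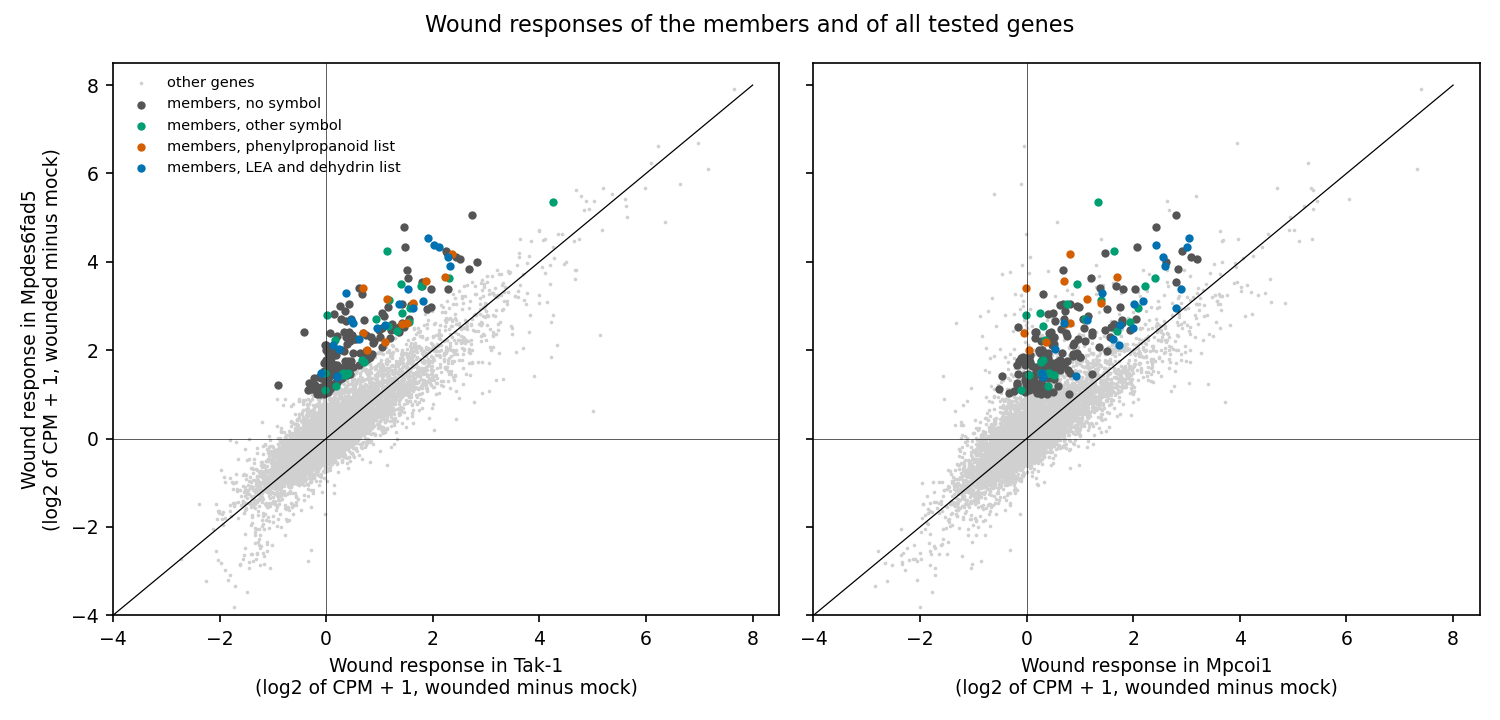
Each point is 1 gene, with its wound response in Mpdes6fad5 on the vertical axis and in Tak-1 (left) or Mpcoi1 (right) on the horizontal axis, as wounded minus mock on the log2(CPM + 1) scale. Grey points are other tested genes, coloured points are the 228 members by list, and the diagonal marks equal responses. Members lie at least 1 above the diagonal on the left by construction. On the right all 228 lie above it, which the choice on a high Mpdes6fad5 response favours.

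The member that fell in Mpcoi1 was Mp7g13750, a gene without a symbol. Mock Mpcoi1 libraries read 8.88, 10.5 and 7.17 CPM, and wounded ones read 5.29, 5.17 and 7.96 CPM, so the groups overlapped. Its response of -0.47 ± 0.15 (SE, n = 3, limma adjusted p = 0.0159) lost the call without mock library 2 (adjusted p = 0.0917), without wounded library 1 (0.0731) and without wounded library 2 (0.0770). Over all alternatives its adjusted p ran from 0.00151 to 0.0917. Without wounded library 3 the number of members that fell was 3, and without mock library 2, wounded library 1 or wounded library 2 it was 0. In Mpdes6fad5 the same gene went from 6.23, 7.52 and 7.25 CPM to 19.9, 22.0 and 18.6 CPM.

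A larger response can come from a higher wounded level or from a lower mock level, and both arrangements occurred. Wounded Mpdes6fad5 lay above wounded Tak-1 in every library for 195 members (85.5%), beside 26.6% of all tested genes; the rule used these libraries, so nothing is read from the excess. Of the 195, 59 were also higher in mock Mpdes6fad5, 22 were lower there, and 114 had overlapping mock groups. Among the other 33 members, 10 were lower in mock Mpdes6fad5 without being higher after wounding. Counted over all members, mock Mpdes6fad5 lay above mock Tak-1 in 59 (25.9%, beside 24.5% of all tested genes) and below it in 32 (14.0%, beside 26.8%). The mock difference had a median of 0.02 and ran from -2.17 to 3.37, whereas the wounded difference had a median of 1.45 and reached 1 in 182 members. Of these 33 members, whose wounded groups were not fully separated, 25 still had a higher wounded mean in Mpdes6fad5, 14 of them by at least 1, and 8 did not. Wounded Mpdes6fad5 exceeded wounded Mpcoi1 without overlap in 219 members, beside 27.6% of all tested genes. The rule and the filter used these Mpdes6fad5 libraries, so nothing is read from this excess either. Because whole tissue was sequenced, fewer cells of a type and less RNA per cell cannot be told apart.

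**Figure D2:**
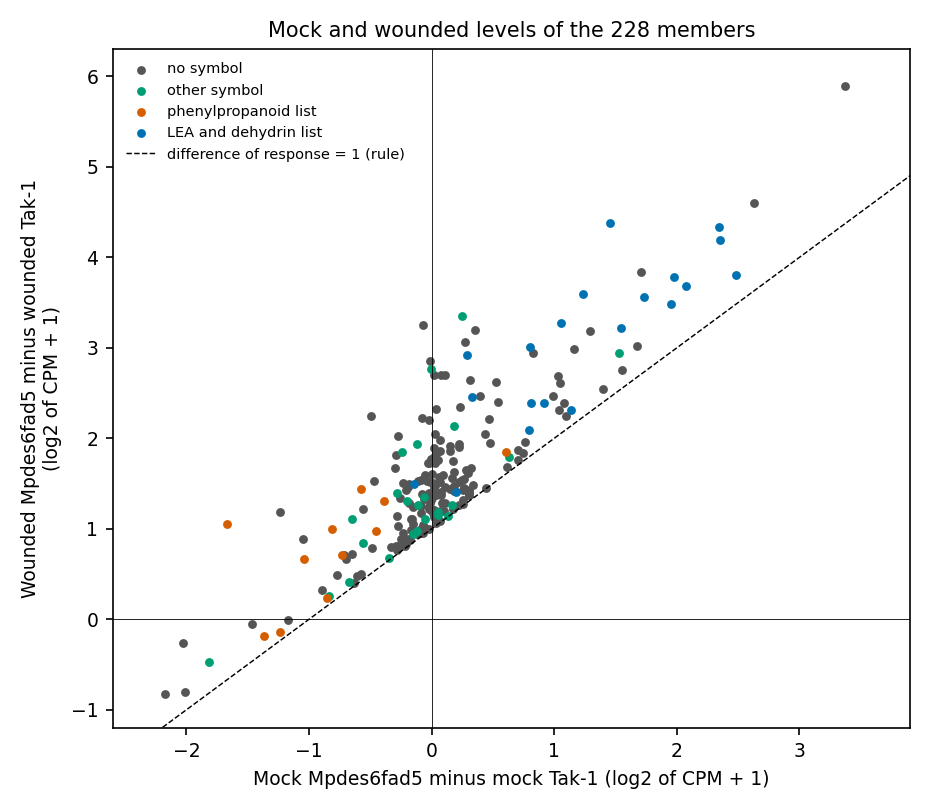
For each of the 228 members the horizontal axis gives mock Mpdes6fad5 minus mock Tak-1 and the vertical axis wounded Mpdes6fad5 minus wounded Tak-1, both as differences of group means on the log2(CPM + 1) scale. All members lie on or above the dashed line because the rule requires it. LEA and dehydrin members sit to the upper right, with median differences of 1.18 and 3.24, except MpLEA-like4 at a mock difference of -0.14. Phenylpropanoid members sit to the left, with medians of -0.81 and 0.98, except MpPKS/CHS16 at a mock difference of 0.61.

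LEA and dehydrin genes made up the largest named group. Of 60 measured genes of this list 20 (33.3%) were members, beside 1.72% of all tested genes. In Mpcoi1, 17 of these 20 rose after wounding, beside 24.5% of all tested genes, 0 fell and 3 did not pass the test (limma), with a median response of 1.88; over the whole list 40 of 60 rose, 7 fell and the median was 1.07. The median responses of the 20 in Tak-1 and Mpdes6fad5 were 1.03 and 2.81. Mock Mpdes6fad5 lay above mock Tak-1 in 18 of the 20, beside 24.5% of all tested genes, and below it in 1, beside 26.8%. Wounded Mpdes6fad5 lay above wounded Tak-1 in all 20, beside 26.6% of all tested genes, in libraries that the rule used.

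MpLEA-like39 (Mp6g03050) had 0 reads in all mock libraries of Tak-1 and Mpcoi1. Mock Mpdes6fad5 libraries read 0.264, 0.321 and 0.0942 CPM. After wounding it read 2.27, 2.98 and 3.08 CPM in Tak-1, 11.3, 6.50 and 5.12 CPM in Mpcoi1, and 25.5, 24.4 and 33.4 CPM in Mpdes6fad5. The 3 wounded groups did not overlap, with Tak-1 lowest and Mpdes6fad5 highest. Its rise in Mpcoi1 was 3.05 ± 0.19 (SE, n = 3, limma adjusted p = 2.11e-10), and its responses in Tak-1 and Mpdes6fad5 were 1.91 and 4.54.

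MpLEA-like40 (Mp6g03060), its neighbour in the order of identifiers, read 0.0517, 0.0401 and 0.177 CPM in mock Tak-1 and 1.89, 1.21 and 0.80 CPM in mock Mpdes6fad5. Wounded libraries read 2.95, 4.18 and 4.05 CPM in Tak-1, 10.5, 6.72 and 5.03 CPM in Mpcoi1 and 40.6, 40.7 and 52.9 CPM in Mpdes6fad5. Again every wounded Mpdes6fad5 library exceeded every other library. The rise in Mpcoi1 was 3.00 ± 0.20 (limma, adjusted p = 5.42e-10).

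MpLEA-like61 (Mp8g13550) combined the largest difference of response in this list, 2.93, with a Tak-1 response of 0.37. Tak-1 libraries stayed between 0 and 0.790 CPM in both treatments. Mock Mpdes6fad5 read 2.76, 1.35 and 1.60 CPM and wounded Mpdes6fad5 25.2, 19.98 and 38.6 CPM. Mpcoi1 went from 0.0378, 0.162 and 0 CPM to 1.92, 2.48 and 1.29 CPM, a rise of 1.42 ± 0.23 (limma, adjusted p = 4.74e-05). MpLEA-like12 (Mp3g04820) had a similar arrangement: Tak-1 never exceeded 0.616 CPM, mock Mpdes6fad5 read 8.08, 5.17 and 3.06 CPM, and wounded Mpdes6fad5 24.4, 18.4 and 37.1 CPM. It rose by 1.74 ± 0.26 in Mpcoi1 (limma, adjusted p = 1.74e-05).

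The most abundant member of the list was MpDHN2 (Mp4g06390), a dehydrin. Its mock libraries read 26.7, 23.5 and 22.3 CPM for Tak-1, 30.5, 26.9 and 27.3 CPM for Mpcoi1 and 49.3, 42.2 and 36.5 CPM for Mpdes6fad5. Wounded levels were 85.8, 91.4 and 86.2 CPM in Tak-1, 145, 125 and 124 CPM in Mpcoi1 and 401, 337 and 398 CPM in Mpdes6fad5. All 3 genotypes were higher after wounding in every library, and the responses were 1.82, 2.18 and 3.12 in the same order. The rise in Mpcoi1 had a standard error of 0.10 and a limma adjusted p of 2.06e-12. MpLEAL5 (Mp4g05760) differed in that its Mpcoi1 and Mpdes6fad5 responses were close, at 2.80 and 2.94, against 1.63 in Tak-1, and its mock level was 11.9, 5.91 and 6.92 CPM in Mpdes6fad5 against 0.724, 0.481 and 0.575 CPM in Tak-1.

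The remaining LEA members that rose in Mpcoi1 were MpLEA-like34, MpLEA-like35 and MpLEA-like36, with responses of 2.43, 2.59 and 2.55, MpLEA-like27 and MpLEA-like26, with 2.89 and 2.01, MpLEA-like2 with 2.00, MpLEA1 with 1.75, MpLEA-like4 with 1.62, MpLEAL2 with 1.13, MpLEA-like15 with 0.93 and MpLEA-like28 with 0.69. The call of MpLEA-like28 (limma, adjusted p = 0.00121) was lost with an added constant of 5 CPM (0.0658), within a range over its alternatives from 2.23e-05 to 0.0658. The 2 members not above Tak-1 in mock plants were MpLEA-like15, with 2.57, 1.46 and 1.18 CPM in Mpdes6fad5 overlapping 1.09, 1.72 and 1.24 CPM in Tak-1, and MpLEA-like4, with 7.74, 8.59 and 8.62 CPM in Mpdes6fad5 below 9.93, 8.87 and 9.07 CPM in Tak-1. The 3 that did not pass in Mpcoi1 were MpLEA-like48 at 0.53 (limma adjusted p = 0.0894), MpLEAL1 at 0.30 (0.369) and MpLEA-like45 at 0.29 (0.269). In mock Mpdes6fad5 libraries the level of MpLEA-like48 varied from 15.7 to 8.19 and 5.74 CPM, and that of MpLEAL1 from 18.1 to 9.37 and 6.92 CPM. Library 1 was the highest mock Mpdes6fad5 library for most LEA and dehydrin members. It was not the highest for MpLEA-like39, MpLEA-like28 and MpLEA-like4. What raised library 1 was not tested. LEA genes form a large family, and how reads shared by close copies were counted is not stated in the labels.

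**Figure D3:**
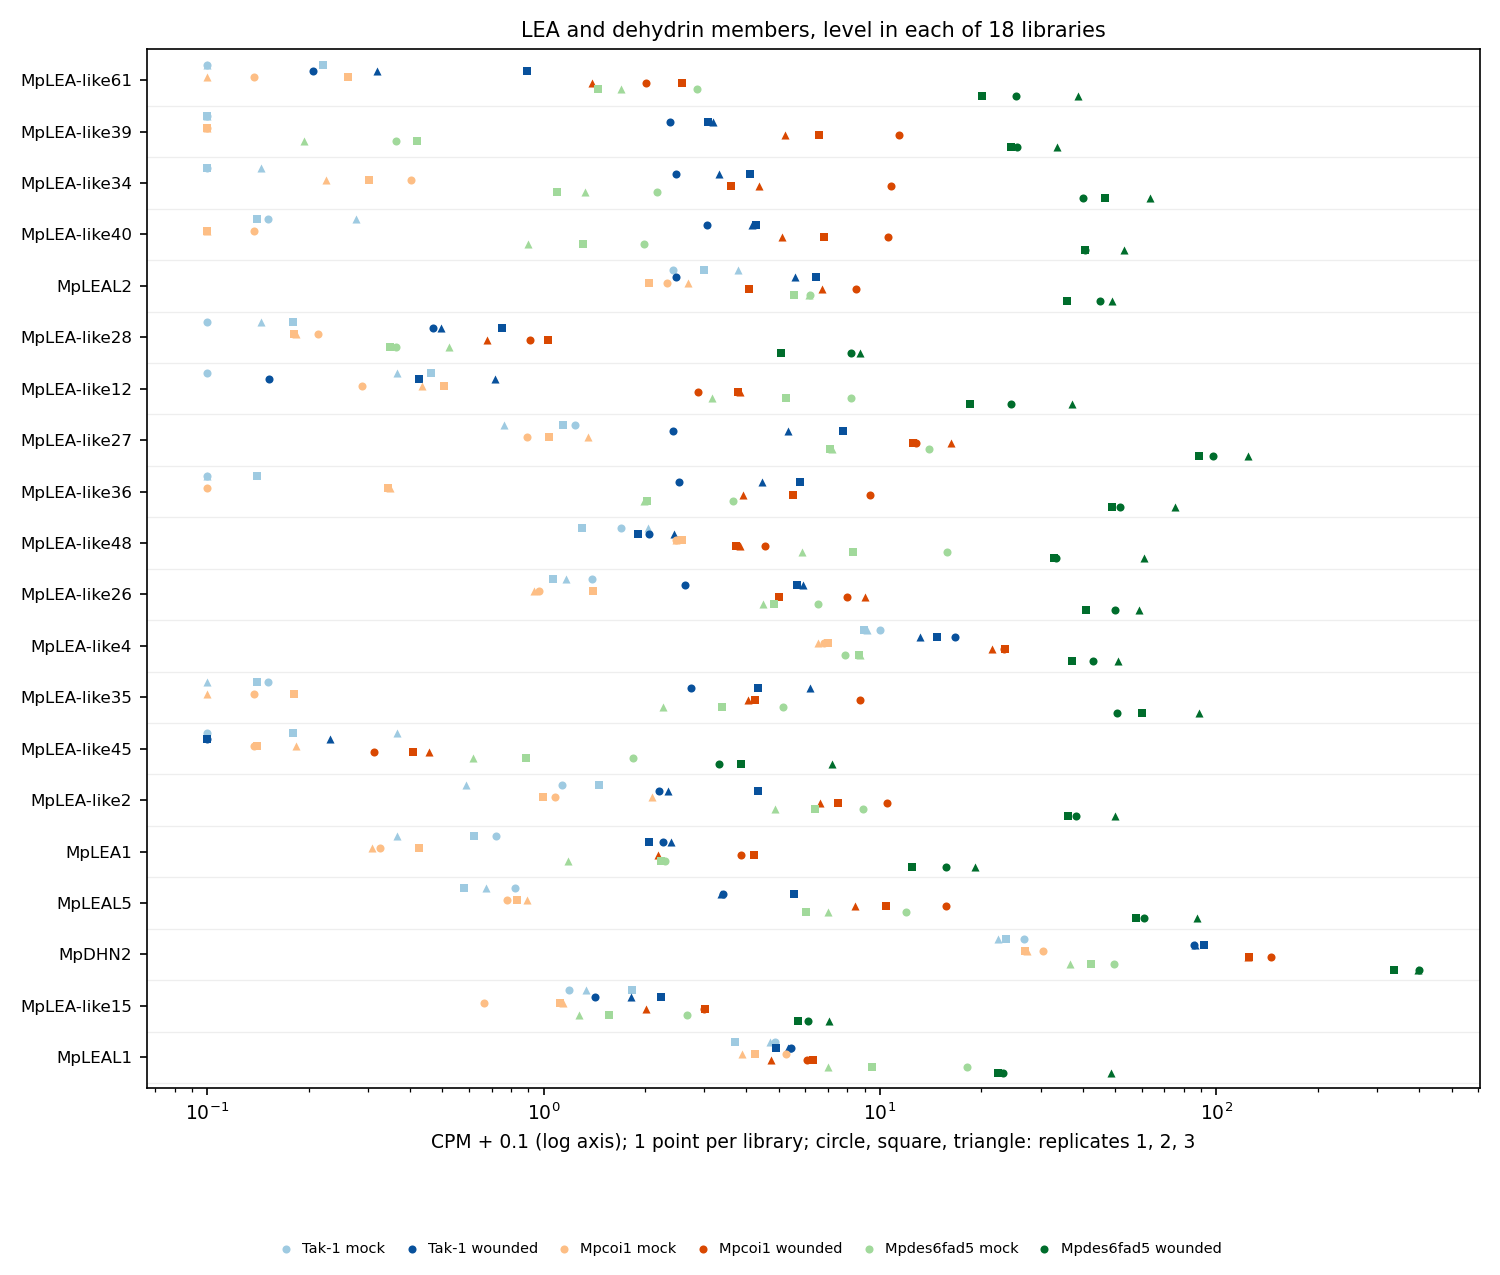
Levels of the 20 LEA and dehydrin members in each of the 18 libraries, as CPM + 0.1 on a log axis, with 1 point per library, colour for genotype and treatment, and circle, square and triangle for replicates 1, 2 and 3. Wounded Mpdes6fad5 points lie to the right of the wounded Tak-1 points for all 20 genes, and mock Mpdes6fad5 lies to the right of mock Tak-1 without overlap for 18.

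The phenylpropanoid list gave 11 members out of 41 measured genes (26.8%, beside 1.72% of all tested genes). In Mpcoi1, 4 of the 11 (beside 24.5% of all tested genes) rose after wounding, 0 fell and 7 did not pass the test (limma), with a median response of 0.72; over the whole list 11 of 41 rose, 9 fell and the median was 0.10. Their median responses were 1.42 in Tak-1 and 3.08 in Mpdes6fad5. Unlike the LEA group, 0 of the 11 were above mock Tak-1 in mock Mpdes6fad5 without overlap, beside 24.5% of all tested genes. Below it were 2 of the 11, beside 26.8% of all tested genes. After wounding 0 of the 11 exceeded wounded Tak-1 without overlap, beside 26.6%, and the rule used all these libraries. This picture rests on the Tak-1 libraries numbered 3. Without them the median Tak-1 response of the 11 was 0.43, and with them alone it was 3.95, and the response of Mpdes6fad5 exceeded that of Tak-1 by at least 1 in 11 of 11 genes in the first case and 0 of 11 in the second. MpPKS/CHS20 and MpPAL-like2 kept a smaller excess in the second case, with Tak-1 responses of 1.90 and 2.28 against 2.60 and 2.61.

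MpPAL3 (Mp7g14880), a phenylalanine ammonia lyase gene, showed the split most plainly. Mock Tak-1 read 6.15, 9.87 and 0.133 CPM and wounded Tak-1 2.11, 3.44 and 26.0 CPM. In libraries 1 and 2 the wounded level was thus below the mock level, and in library 3 it was above. The Tak-1 response was 0.69 over all libraries, -1.25 without those numbered 3 and 4.57 from them alone. Mpdes6fad5 went from 0.302, 0.392 and 0.518 CPM to 17.3, 14.0 and 11.2 CPM, a response of 3.42 with no overlap. Mpcoi1 stayed between 0.531 and 1.51 CPM, and its response was -0.01 ± 0.69 (limma, adjusted p = 0.996).

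MpPKS/CHS18 (Mp4g18370), a gene of the chalcone synthase and polyketide synthase family, read 15.9, 18.9 and 1.73 CPM in mock Tak-1 and 20.4, 30.1 and 189 CPM after wounding. In Mpdes6fad5 it went from 4.08, 4.92 and 4.66 CPM to 103, 102 and 93.6 CPM. The wounded Mpdes6fad5 libraries lay close together and between the wounded Tak-1 libraries. In Mpcoi1, wounded libraries read 2.26, 2.61 and 10.8 CPM, with library 3 again highest, and the response of 0.80 ± 0.70 did not pass (limma, adjusted p = 0.355). The Tak-1 response was 0.49 without the libraries numbered 3 and 6.12 from them alone.

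MpPKS/CHS11 (Mp4g14120) behaved alike, with 9.93, 13.4 and 0.752 CPM in mock Tak-1 and 3.9, 7.48 and 70.7 CPM in wounded Tak-1. Its Mpdes6fad5 libraries read 3.85, 3.85 and 2.54 CPM before and 39.7, 38.5 and 36.2 CPM after wounding. Responses of MpPKS/CHS11 and MpPAL7 in Mpcoi1 were 1.13 ± 0.77 and 0.70 ± 0.52 and did not pass (limma, adjusted p = 0.231 and 0.271). MpPAL4, MpPAL6 and MpPKS/CHS16 did not pass either, with responses of -0.05, 0.36 and 0.05. The standard errors pool the spread of all 18 libraries, among them the split Tak-1 libraries. In a fit of the Mpcoi1 libraries alone they were 0.37 for MpPKS/CHS11 and 0.23 for MpPAL7, and both genes passed (limma, adjusted p = 0.0304 and 0.0330). In wounded Mpcoi1, library 3 was the highest for each of these 5 genes.

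The 4 members that rose in Mpcoi1 were MpPKS/CHS13 at 1.69, MpPKS/CHS12 at 1.40, MpPAL-like2 at 0.82 and MpPKS/CHS20 at 0.72. MpPKS/CHS20 (Mp7g14890) was the most abundant and the least dependent on library 3: mock Tak-1 read 84.3, 62.2 and 54.4 CPM and wounded Tak-1 165, 166 and 206 CPM, while Mpdes6fad5 went from 29.4, 23.6 and 22.3 CPM to 164, 165 and 142 CPM. Mock Mpdes6fad5 lay below mock Tak-1 in every library and after wounding Mpdes6fad5 was not the higher group. Its rise in Mpcoi1 was 0.72 ± 0.18 (limma, adjusted p = 0.00312). MpPAL-like2 had the same arrangement, with mock levels of 1.02, 0.713 and 0.753 CPM in Mpdes6fad5 against 3.57, 3.61 and 2.79 CPM in Tak-1 and a rise in Mpcoi1 of 0.82 ± 0.19 (limma, adjusted p = 0.00177). The call of MpPKS/CHS13 (limma, adjusted p = 0.0232) was lost without mock library 2 (0.0619), mock library 3 (0.0506), wounded library 1 (0.0525) or wounded library 3 of Mpcoi1 (0.0604), within a range over all alternatives from 1.78e-05 to 0.150. MpPKS/CHS12 (limma, adjusted p = 0.00949) kept its call in each of these and lost it with voom on recovered reads (0.0659), within a range from 0.000364 to 0.0659.

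Polyphenol oxidases oxidise phenolic compounds, proteins of pathogenesis-related family PR6 are proteinase inhibitors, and dihydroflavonol reductase (DFR) acts downstream of chalcone synthase in flavonoid synthesis. The 6 members with these names, MpPPO2, MpPPO3, MpPPO52, MpPR6a, MpPR6b and MpDFR-like19, all had wounded library 3 highest and mock library 3 lowest in Tak-1. MpPR6b (Mp8g12150) read 12, 11.4 and 0.221 CPM in mock and 7.01, 6.04 and 65.3 CPM in wounded Tak-1, and went from 3.96, 5.38 and 4.47 CPM to 41.9, 35.2 and 39.2 CPM in Mpdes6fad5. Its Tak-1 response was -0.76 without the libraries numbered 3 and 5.76 from them alone. MpPPO2 and MpPPO52 rose in Mpcoi1, by 1.39 ± 0.46 and 2.09 ± 0.60 (limma, adjusted p = 0.0174 and 0.00674). Without wounded Mpcoi1 library 3 the adjusted p of MpPPO2 was 0.0676, and over its alternatives it ran from 0.000426 to 0.126. MpPPO3 at 0.94, MpDFR-like19 at 0.30, MpPR6a at 0.28 and MpPR6b at 0.24 did not pass. In a fit of the Mpcoi1 libraries alone MpPPO3 passed (limma, adjusted p = 0.0122). By list, 4 of 82 measured dirigent and polyphenol oxidase genes were members (4.88%), and 3 of these rose in Mpcoi1. Of 64 pathogenesis-related genes 4 were members (6.25%), and 0 of these rose. Over all tested genes 1.72% were members and 24.5% rose in Mpcoi1. MpPPO2 was the only one of the 6 whose wounded Mpdes6fad5 libraries, at 22.6, 22.4 and 22.1 CPM, all exceeded wounded Tak-1, at 2.06, 1.86 and 16.1 CPM.

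**Figure D4:**
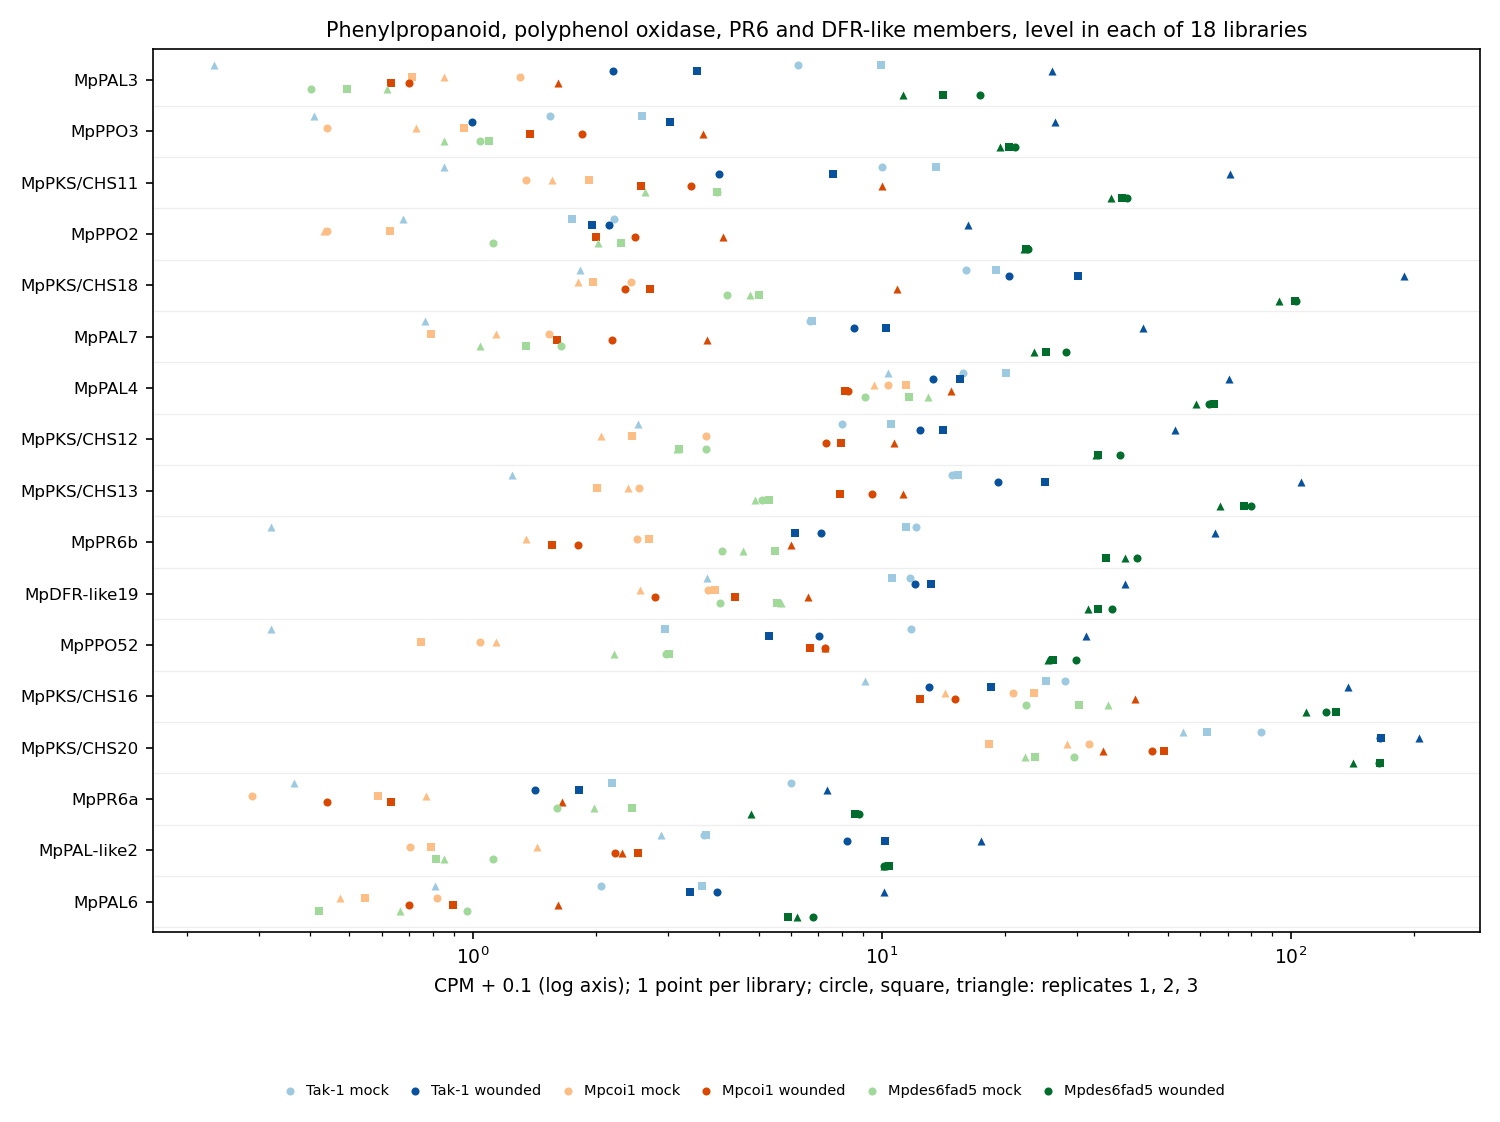
Levels of the 11 phenylpropanoid members and the 6 polyphenol oxidase, PR6 and DFR-like members in each of the 18 libraries, as CPM + 0.1 on a log axis, with colour for genotype and treatment and circle, square and triangle for replicates 1, 2 and 3. In Tak-1 the triangle is the lowest mock point and the highest wounded point for all 17 genes, while the wounded Mpdes6fad5 points lie close together.

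Among genes of signalling, MpMAPKKK6 (Mp2g17410), named for the kinases at the top of mitogen-activated protein kinase cascades, had the largest difference of response of any member with a symbol, 3.10. Mock levels were low in all genotypes, at 0.103, 0.321 and 0.620 CPM in Tak-1 and 0.793, 0.356 and 0.612 CPM in Mpdes6fad5. After wounding it read 1.74, 1.16 and 3.30 CPM in Tak-1, 2.86, 1.55 and 4.49 CPM in Mpcoi1 and 35.7, 24.2 and 28.0 CPM in Mpdes6fad5. Mock groups of Tak-1 and Mpdes6fad5 overlapped, and the wounded groups were far apart. The rise in Mpcoi1 was 1.64 ± 0.26 (limma, adjusted p = 3.14e-05). It was 1 member out of 43 measured MAP kinase and protein phosphatase 2C genes (2.33%, beside 1.72% of all tested genes).

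MpRDR1/2-2 (Mp5g06390), named for RNA-dependent RNA polymerases, which copy single-stranded RNA, was read almost solely in wounded Mpdes6fad5. Those libraries read 7.79, 5.15 and 5.55 CPM, and the gene passed the filter on low values only through them. In the other 15 libraries it stayed between 0 and 0.171 CPM, near the detection limit. Its Mpcoi1 response was -0.01 ± 0.13 (limma, adjusted p = 0.968). The next identifier, Mp5g06380, is also a member and carries no symbol: it read 14.4, 16.4 and 14.6 CPM in mock and 11.1, 19.2 and 16.1 CPM in wounded Tak-1, and 34.5, 26.2 and 23.4 CPM in mock and 121, 106 and 145 CPM in wounded Mpdes6fad5. It rose by 0.87 ± 0.16 in Mpcoi1 (limma, adjusted p = 0.000204).

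Of 13 measured WRKY transcription factors 3 were members (23.1%, beside 1.72% of all tested genes). In Mpcoi1 11 of the 13 rose while 0 fell, beside rises in 24.5% and falls in 28.5% of all tested genes. MpWRKY6 (Mp1g08960) read 1.03, 1.44 and 0.310 CPM in mock and 3.43, 5.07 and 8.89 CPM in wounded Tak-1, and 0.302, 0.534 and 0.80 CPM in mock and 16.6, 14.8 and 16.3 CPM in wounded Mpdes6fad5. It rose in Mpcoi1 by 2.23 ± 0.24 (limma, adjusted p = 3.56e-07). MpWRKY13 (Mp4g00180) was lower in mock Mpdes6fad5, at 11.1, 12.9 and 13.8 CPM, than in mock Tak-1, at 19.2, 20.7 and 21.9 CPM. After wounding its levels overlapped, at 35.3, 41.3 and 34.9 CPM in Mpdes6fad5 and 24.4, 24.6 and 35.3 CPM in Tak-1, and it rose by 0.40 ± 0.12 in Mpcoi1 (limma, adjusted p = 0.00939). MpWRKY7 (Mp3g17660) shared the split of the Tak-1 libraries, with a Tak-1 response of -0.13 without those numbered 3 and 3.07 from them alone. The Tak-1 response of MpWRKY6 was 1.22 without them and 2.92 from them alone, and that of MpWRKY13 was 0.28 and 0.67. With only those libraries standing for Tak-1, neither MpWRKY6, MpWRKY7 nor MpWRKY13 met the rule.

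The rise of MpWRKY7 in Mpcoi1, 1.09 ± 0.42 (limma, adjusted p = 0.0363), was lost without mock library 1, 2 or 3 of Mpcoi1 (adjusted p = 0.0563, 0.105 and 0.0665) and without wounded library 1 or 3 (0.0722 and 0.0956), within a range over all alternatives from 0.000466 to 0.180. MpHSP90-5 (Mp6g06660), a chaperone of the HSP90 family and the single member among 6 heat shock genes, read 1.40, 1.04 and 1.24 CPM in mock and 0.896, 1.30 and 1.36 CPM in wounded Tak-1. In Mpdes6fad5 it went from 0.755, 1.35 and 0.753 CPM to 5.53, 3.71 and 4.07 CPM. Its rise in Mpcoi1 of 0.42 ± 0.16 (limma, adjusted p = 0.0326) was lost without mock library 2 or 3 (0.0721 and 0.111) and without wounded library 2 or 3 (0.0559 and 0.133), within a range from 0.0261 to 0.133.

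MpBHLH2 (Mp2g00890), of the basic helix-loop-helix transcription factor family, had the largest wound response of any member. Mock Tak-1 read 10.6, 12.6 and 9.56 CPM and wounded Tak-1 207, 243 and 223 CPM. Mpdes6fad5 went from 5.21, 6.06 and 5.60 CPM to 279, 246 and 280 CPM. Both ends differed without overlap: the mutant was lower in mock plants and higher after wounding, and its response was 5.35 against 4.25. Mpcoi1 went from 9.60, 10.2 and 10.9 CPM to 28.1, 27.9 and 26.3 CPM, a rise of 1.34 ± 0.09 (limma, adjusted p = 4.39e-10) that was the smallest of the 3 responses.

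MpCYP707A (Mp2g25940) belongs to a family that in Arabidopsis hydroxylates and inactivates abscisic acid. Its mock level was 5.84, 6.14 and 7.39 CPM in Tak-1, 2.42, 1.02 and 2.38 CPM in Mpcoi1 and 1.02, 0.891 and 1.46 CPM in Mpdes6fad5. Wounded levels were 34.3, 35.1 and 37.8 CPM, 14.5, 11.6 and 16.8 CPM, and 29.4, 25.5 and 21.8 CPM in the same order. Tak-1 was thus the highest genotype in both treatments, and the larger response of Mpdes6fad5, 3.65 against 2.30, came with a lower mock level. In Mpcoi1 the rise was 2.41 ± 0.18 (limma, adjusted p = 2.56e-09).

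MpDIR26 (Mp5g00530), of the dirigent family that guides phenolic coupling in other plants, was among the most abundant members. Its mock levels overlapped, at 49.8, 46.0 and 44.7 CPM in Tak-1 and 59.6, 53.3 and 45.6 CPM in Mpdes6fad5. Wounded levels were 109, 111 and 143 CPM in Tak-1, 150, 143 and 163 CPM in Mpcoi1 and 294, 257 and 320 CPM in Mpdes6fad5, with a rise of 1.698 ± 0.11 in Mpcoi1 (limma, adjusted p = 4.05e-10). MpOXR2 (Mp7g17840) rose by 0.52 ± 0.10 in Mpcoi1 (limma, adjusted p = 0.000239) and read 84.4, 63.8 and 78.7 CPM in wounded Mpdes6fad5 against 34.6, 38.8 and 40.1 CPM in wounded Tak-1. The receptor-like kinase MpRLK-Pelle_WAK_LRK10L-1 rose by 1.95 ± 0.16 in Mpcoi1 (limma, adjusted p = 1.33e-08), while MpRLK-Pelle_URK-Pp-1b did not pass at 0.31.

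The other members with a symbol did not pass in Mpcoi1. MpPR15e, of a pathogenesis-related family of germin-like proteins, read 3.06, 4.17 and 2.78 CPM in mock and 37.2, 30.3 and 37.0 CPM in wounded Mpdes6fad5. Tak-1 read 1.29, 0.321 and 0.0885 CPM in mock and 1.48, 2.79 and 9.59 CPM in wounded libraries, with the same split of library 3. The Tak-1 response of MpPR15e was 0.82 without the libraries numbered 3. From them alone it was 3.28, above the Mpdes6fad5 response of 3.05. Its Mpcoi1 response of 0.76 (limma, adjusted p = 0.117) passed without wounded library 2 (0.0440), within a range over its alternatives from 0.0221 to 0.363. MpHTH responded by 0.34 (limma, adjusted p = 0.0662; 0.0346 to 0.196 over its alternatives, and 0.0346 in a fit of the Mpcoi1 libraries alone), MpCupin37 by 0.04, MpACOS5, named for an acyl-CoA synthetase, by -0.10, and MpGH31.1, of a glycoside hydrolase family, by 0.26. MpPOD151, a class III peroxidase, responded by 0.40. Without wounded library 2 MpGH31.1 and MpPOD151 passed (limma, adjusted p = 0.0194 and 0.0102), within ranges from 0.0194 to 0.416 and from 0.0102 to 0.380. Over all 55 members with a symbol 33 rose, beside 24.5% of all tested genes, 0 fell, beside 28.5%, and 22 did not pass. These members are all described here, beyond those the naming rule selected, with their values in view.

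**Figure D5:**
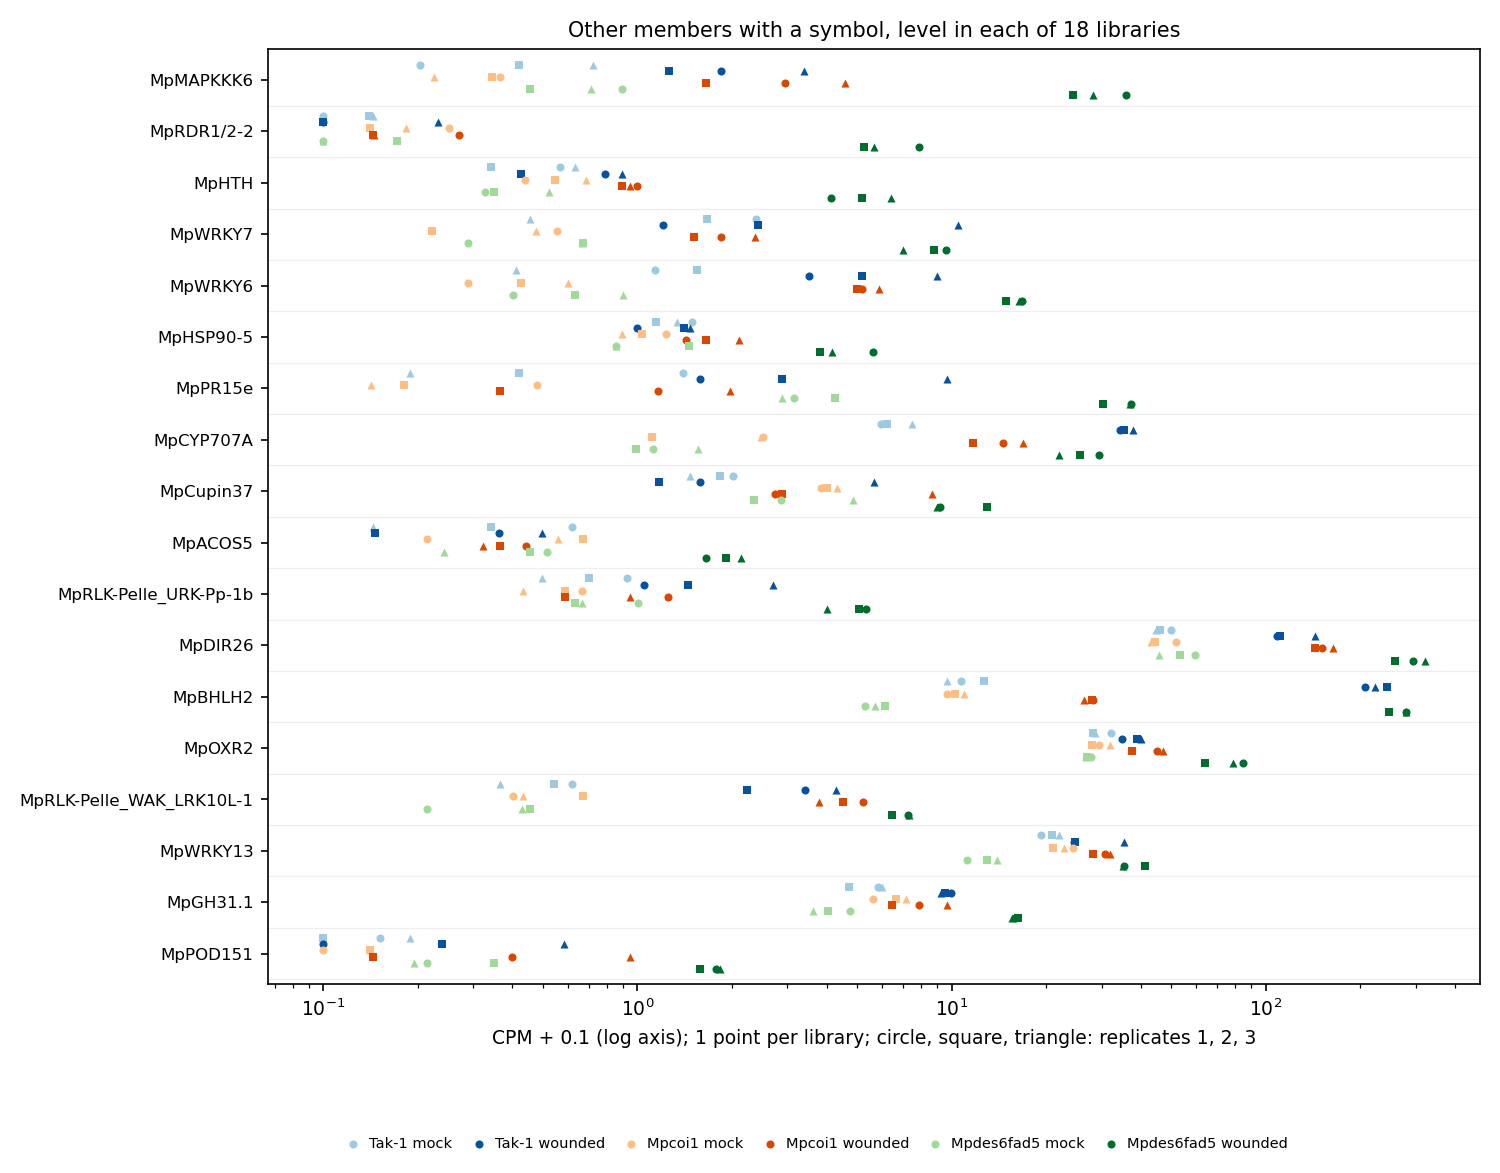
Levels of the 18 other members with a symbol in each of the 18 libraries, as CPM + 0.1 on a log axis, with colour for genotype and treatment and circle, square and triangle for replicates 1, 2 and 3. MpMAPKKK6 and MpRDR1/2-2 have their wounded Mpdes6fad5 points well to the right of all others, while for MpCYP707A the wounded Tak-1 points, at 34.3 to 37.8 CPM, are the highest.

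The remaining 173 members carried no symbol in the reference table, so their function is not given here. Of these 80 rose in Mpcoi1, beside 24.5% of all tested genes, 1 fell, beside 28.5%, and 92 did not pass (limma). Their median responses were 0.26 in Tak-1, 0.41 in Mpcoi1 and 1.75 in Mpdes6fad5, and wounded Mpdes6fad5 exceeded wounded Tak-1 without overlap in 159, beside 26.6% of all tested genes. The largest difference of response among all members, 3.32, was that of Mp4g21030, which had at most 0.12 CPM in any mock library and read 1.37, 1.63 and 3.30 CPM in wounded Tak-1, 5.37, 2.48 and 7.03 CPM in wounded Mpcoi1 and 32.2, 22.8 and 28.3 CPM in wounded Mpdes6fad5. It rose by 2.42 ± 0.24 in Mpcoi1 (limma, adjusted p = 1.44e-07). Mp1g07300 had the same form, with 1.58, 1.44 and 2.73 CPM in wounded Tak-1, 24.0, 14.6 and 21.9 CPM in wounded Mpdes6fad5 and a rise of 2.07 ± 0.18 in Mpcoi1 (limma, adjusted p = 1.89e-08). Mp4g14810, close to the LEA genes MpLEAL2 to MpLEA-like27 on chromosome 4, read 0.633, 0.790 and 1.19 CPM in wounded Tak-1 and 15.4, 13.7 and 14.3 CPM in wounded Mpdes6fad5, and rose by 1.37 ± 0.18 in Mpcoi1 (limma, adjusted p = 4.37e-06).

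Other members without a symbol departed from this form. Mp8g13560, next to MpLEA-like61, was lower after wounding in Tak-1, from 0.621, 0.602 and 0.752 CPM to 0.264, 0.139 and 0.308 CPM, and higher in Mpdes6fad5, from 1.47, 1.03 and 0.895 CPM to 9.07, 9.55 and 12.6 CPM; its Mpcoi1 response of 0.17 ± 0.14 did not pass (limma, adjusted p = 0.333). Mp2g26500 did the same at a higher level, from 64.7, 70.3 and 78.8 CPM to 37.0, 43.4 and 33.0 CPM in Tak-1 and from 57.5, 63.3 and 53.1 CPM to 145, 118 and 144 CPM in Mpdes6fad5, with a response of 0.13 in Mpcoi1 that did not pass (limma, adjusted p = 0.404). Mp3g18400 already differed in mock plants, at 13.3, 15.5 and 14.1 CPM in Mpdes6fad5 against 0.776, 0.441 and 0.266 CPM in Tak-1, and reached 120, 99.9 and 115 CPM after wounding against 0.633, 0.790 and 1.32 CPM in Tak-1. The rise of Mp3g18400 in Mpcoi1 was 0.71 ± 0.15 (limma, adjusted p = 0.00066). Mp2g26500, Mp3g18400 and Mp5g06380 were singled out after their values were seen.

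The largest rise of any member in Mpcoi1 was that of Mp7g16770, 3.20 ± 0.19 (limma, adjusted p = 1e-10), from 0.302, 0.569 and 0.208 CPM to 15.2, 11.3 and 8.58 CPM. In Tak-1 it reached 6.01, 8.04 and 6.03 CPM and in Mpdes6fad5 42.0, 39.9 and 56.2 CPM after wounding. Mp8g10940 rose by 3.09 ± 0.20 in Mpcoi1 (limma, adjusted p = 3.66e-10) and read 26.4, 31.1 and 33.0 CPM in wounded Mpdes6fad5 against 11.5, 7.62 and 11.5 CPM in wounded Tak-1. For both genes the response was in the order Tak-1, Mpcoi1, Mpdes6fad5, from 2.5 to 4.06 and from 2.43 to 4.10.

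Several families known from wound responses contributed no member. Members were 1.72% of all tested genes, so 0 members in lists of this size is not read as a result about a family. Of the lipoxygenase and CYP74 list, whose enzymes make oxylipins, 0 of 17 measured genes were members. In Mpcoi1 2 of the 17 rose and 10 fell, beside 24.5% and 28.5% of all tested genes. None of the 4 jasmonate signalling genes was a member; the response of MpJAZ was 2.62 in Tak-1, 0.55 in Mpcoi1 and 2.61 in Mpdes6fad5. The lists of AP2/ERF factors (21 genes), MYB factors (36), NAC and GRAS factors (19), C2H2 (21) and bZIP factors (13), desaturases and elongases (16), glutathione and redox enzymes (46), terpenoid synthesis (15), transport (136), auxin and growth (27) and cell cycle and histones (31) also had 0 members. Class III peroxidases gave 1 member of 121 (0.826%) and cytochromes P450 with glycosyltransferases 1 of 118 (0.847%), beside 1.72% of all tested genes.

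Members were often neighbours in the order of the deposited identifiers. A member stood next to another member, among tested genes, for 57 of 228 (25%), whereas 383 of the 12992 other tested genes (2.95%) stood next to one. The longest run held 7 members on chromosome 4, from Mp4g14110 to Mp4g14180, with MpPAL7, MpPKS/CHS11, MpPAL6, MpPKS/CHS12, MpPAL-like2, Mp4g14170 and MpPKS/CHS13. MpPAL4 and MpPKS/CHS16 follow after 2 genes that were not members, MpPKS/CHS14 with a difference of response of 0.99 and MpPKS/CHS15 with 0.58. On chromosome 6, 6 of 12 tested genes from Mp6g02970 to Mp6g03120 were members, beside 1.72% of all tested genes, and all 6 were LEA genes. Both ends of this block were placed at members, so its share is partly set by that choice. On chromosome 4 MpLEAL2, MpLEA-like26 and MpLEA-like27 adjoin one another. Within the chromosome 6 block MpLEA-like37 was no member although its Mpdes6fad5 response was 3.47, since its Tak-1 response was 2.65. MpPAL3 and MpPKS/CHS20 are neighbours on chromosome 7, and MpPPO2 and MpPPO3 on chromosome 2. Over the 8 numbered chromosomes members were 1.32% to 2.12% of tested genes, and 0 of 37 tested genes of chromosome V were members. Such neighbours are often related copies, and how reads shared between copies were assigned is not stated.

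Values near the thresholds ran on without a gap. Just inside the difference of 1 lay MpPOD151, Mp6g00700 and Mp2g12040, at 1.01, 1.01 and 1.02, and just outside lay Mp6g02790, Mp4g20070 and Mp3g13410, which round to 1.00, 1.00 and 0.99. For the Mpdes6fad5 response, Mp8g11640, Mp2g22870 and Mp1g15610 lay inside at 1.01, 1.01 and 1.02, and MpMAPKKK22, MpGH96 and MpAMT1.2 outside at 1.00, 0.99 and 0.97. In all 12 fits of the rule that left out 1 Tak-1 or Mpdes6fad5 library, 159 of 228 members were kept, among them 19 of 20 LEA and dehydrin members, 7 of 11 phenylpropanoid members, 12 of 24 other members with a symbol and 121 of 173 without one. The number of genes that met the rule ran from 204, without wounded Tak-1 library 1, to 282, without wounded Tak-1 library 3.

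Summed levels of markers of other cell types differed between the groups, and no member is among these markers. The summed level of 3 oil body cell markers was 65.4 to 77.0 CPM in mock and 139 to 203 CPM in wounded Tak-1, 62.7 to 72.6 CPM and 74.1 to 78.5 CPM in Mpcoi1, and 67.1 to 71.96 CPM and 120 to 128 CPM in Mpdes6fad5. MpC1HDZ made up most of this sum, at a mean of 63.7 CPM in mock and 175 CPM in wounded Tak-1, while MpSYP12B went from 5.77 to 3.26 CPM and MpERF13 from 3.41 to 1.82 CPM. The summed level of 5 sporophyte markers was 11.3 to 17.9 CPM in wounded Mpdes6fad5 against 7.72 to 9.59 CPM in wounded Tak-1, with 1 of the 5, MpBELL2, at 0 in every library. MpBELL1 carried most of the excess, with means of 10.5 and 4.15 CPM, and MpBELL3 read 1.10 against 0.745 CPM. The other way went MpBELL5, at 2.05 against 2.66 CPM, and MpBELL4, at 0.923 against 0.998 CPM. For 3 male germline and antheridium markers the sum was 8.70 to 12.3 CPM against 4.70 to 8.18 CPM. MpGEX2 carried most of this excess, with means of 5.94 and 2.39 CPM, whereas MpDUO1 read 4.69 against 4.06 CPM and MpPRM 0 in both. For 2 gemma and gemma cup markers the sum was 33.1 to 35.2 CPM against 52.8 to 53.9 CPM. MpKAI2A made up most of it, with means of 32.0 and 50.0 CPM, and MpGCAM1 read 1.99 against 3.29 CPM. Library totals divided by effective sizes were 0.968 to 1.00 in wounded Mpdes6fad5 and 1.07 to 1.10 in wounded Tak-1. Their part in the responses of the members was not tested.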

How the data were processed

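RNA sequencing covered 18 libraries of 3 genotypes and 2 treatments. The submitters' processing notes name Trim Galore, HISAT2, HTSeq and edgeR without versions; the build and the strand setting were not stated. The authors deposited log2 values per gene, read here as log2 CPM with a small prior count: all libraries share a floor of -3.50, or 0.0886 CPM. CPM was 2 to the power of each value minus this floor, and up to 1000 reads 100% of values were whole reads within 0.01. All 18 columns matched a sample by name.

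Of 20574 listed genes, 2688 had no read. The 13220 with at least 1 CPM in at least 3 libraries were fitted as log2(CPM + 1) in a cell-means model of 18 libraries with limma 3.58.1 (R 4.3.3, eBayes with a mean trend), with calls at an adjusted p under 0.05 (Benjamini-Hochberg, over all of them). The added 1 CPM shrinks the responses of low genes. SE is that of the fit, which pools the spread of all 18 libraries, and SD that of libraries. The fit was run on simulated counts with 200 changed genes and the same dispersion for all genes, so that run does not show how it performs on these data. Python 3.11.15, pandas 2.3.3, numpy 2.4.6 and matplotlib 3.10.9 did the rest. Symbols came from a RefSeq table of MpTak2_v7.1, matched by locus tag for 17641 identifiers, 3091 with a symbol; no coordinates or sequences are printed, and lists were matched by symbol.

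Members and lists were chosen with earlier results of these data known. Named by rule were the 6 largest differences of response, up to 20 with a symbol, the 4 largest rises and falls in Mpcoi1 with and without a symbol, WRKY, heat shock, lipoxygenase and jasmonate signalling members, and the 3 genes on each side of each threshold. Alternatives covered the added constant, filters, scaling, fit and single libraries. Counts of non-overlapping groups compare 3 with 3 libraries.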

Additional observations from a re-analysis of the deposited data

Results flagged for a closer look

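Mp7g07330 and Mp8g10760 moved in opposite directions in Mpcoi1 and Mpdes6fad5, with every wounded library on the other side of the mock libraries in each genotype. Mp7g07330 went from 7.78, 7.68 and 7.55 CPM to 6.78, 7.30 and 6.00 CPM in Mpcoi1, a response of -0.18 (limma, adjusted p = 0.350), and from 6.15, 5.17 and 5.51 CPM to 13.3, 13.6 and 17.8 CPM in Mpdes6fad5, a response of 1.26. Mp8g10760 went from 4.61, 5.16 and 5.42 CPM to 4.22, 3.10 and 4.27 CPM in Mpcoi1, a response of -0.33 (limma, adjusted p = 0.0608), and from 4.12, 4.13 and 4.24 CPM to 9.07, 9.18 and 10.7 CPM in Mpdes6fad5, a response of 1.04. Neither response in Mpcoi1 passed the test. Since the Mpdes6fad5 response chose both genes, the difference between the genotypes was not tested.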

How the results depend on the processing

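The number of members that rose in Mpcoi1, 113, was 88 to 133 under the other alternatives and 52 with a filter of a mean of at least 5 CPM, under which 86 members remain; single libraries left out gave 93 to 117. The 1 fall became 2 with library totals, 2 with the replicate block and 0 with the Mpcoi1 libraries alone, and 0 to 3 with single libraries left out. Genes that met the rule numbered 228, against 90 with a constant of 5 CPM, 86 with a mean of at least 5 CPM and 85 with thresholds of 1.5; with single libraries left out they ranged from 204 to 282, and without both Tak-1 libraries numbered 3 they were 295. Whether replicate numbers pair the samples was not decided. Over 45 pairs of same-numbered libraries the correlations of deviations ran from -0.33 to 0.56, 10 over 0.1. Of 18 libraries 9 correlated best with their own number, and the replicate block again gave 113 rises. Over 70 named members and their alternatives 1158 values kept direction and call, 36 lost the call and 22 gained it. Another 19, all of genes without a call, changed sign. These were MpRDR1/2-2 (-0.063 to 0.031 with single libraries left out), MpPAL3 (0.0032 with 5 CPM, 0.0054 with median-of-ratios scaling, -0.23 to 0.13 with single libraries left out), MpPAL4 (-0.31 to 0.081 with single libraries left out), MpPR6b (-0.23 to 0.52, likewise), MpPKS/CHS16 (-0.014 with library totals, -0.46 to 0.38 with single libraries left out), MpPR6a (-0.0011 to 0.46, likewise), MpCupin37 (-0.014 with library totals, -0.41 to 0.28 with single libraries left out) and MpACOS5 (-0.25 to 0.0012, likewise). The cause was not tested. The Mpcoi1 libraries fitted alone also gave calls for MpPPO3, MpHTH, MpPKS/CHS11, MpLEA-like48, MpPAL7 and MpPR15e, and the replicate block gave one for MpHTH (adjusted p = 0.0446). Calls of Mp2g22870 (limma, adjusted p = 0.0366) were lost in 7 of 17 alternatives, up to 0.125. Library totals and quantile normalization moved the median Mpcoi1 response of all genes from -0.05 to -0.11 and -0.11. Depth limits members under about 0.158 CPM in mock plants, where a fitted response depends on the added constant.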
